A study of Homo sapiens with 2 samples.

Results

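The long arm of chromosome 11 (11q) carried 538 of the 12688 ERα peaks in the deposited list. They are the rows on chromosome 11 whose start lies above position 54600000 of the hg19 build. Within the arm, the stretch from 60 to 78 Mb, called 11q12-q13 here without a table of bands, was compared with the rest of the arm and with the short arm, whose peaks end below 51600000. A peak was placed by its centre. The stretch held 214 peaks, the rest of the arm 324 and the short arm 236, and no peak of chromosome 11 lay between the arms.

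The list comes from 1 chromatin immunoprecipitation library set against 1 input library, both from T47D cells, an established human breast cancer line that expresses oestrogen receptor α (ERα). For both libraries the cells spent 48 h in medium stripped of steroids and then 45 min with 10 nM 17β-estradiol. The ChIP library was recovered with the ERα antibody H-20, and the input library had no antibody step. There was 1 library of each kind and no library without estradiol, so the values below have no replicate error and measure no response to the hormone. Intervals are at the 95% level. They reflect counting error alone and take each peak as independent of its neighbours. The peaks of this list stand in groups, with 41.4% of those on chromosomes 1 to 22 and X within 10 kb of another centre. The intervals are therefore likely too narrow. The number of reads behind a peak is unknown from the file.

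ERα is a nuclear receptor that, once bound by estradiol, gathers at enhancers and promoters and recruits coactivators there. Many of its sites in breast cancer cells lie far from gene starts and in groups. The long arm of chromosome 11 is known for a gene-rich stretch in its centromere-side part, which includes CCND1, the gene of the cell-cycle regulator cyclin D1, and for PGR, the progesterone receptor gene. Both are well-known targets of oestrogen signalling. In the RefSeq gene order of GRCh38, PGR stands between ARHGAP42 and TRPC6, and MYEOV is the protein-coding gene before CCND1. No hg19 annotation or sequence was used here, so no peak below is assigned to a gene and no site sequence is shown.

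ERα peaks were concentrated in 11q12-q13. This stretch made up 22.4% of the arm's length and held 39.8% of its peaks. Its density was 11.9 peaks per Mb (exact Poisson interval 10.3 to 13.6), against 5.19 per Mb (4.64 to 5.79) in the rest of the arm. The ratio of these densities was 2.29 (exact conditional binomial interval 1.92 to 2.73). The short arm held 4.57 peaks per Mb (4.01 to 5.20), so that 11q12-q13 was 2.60 times as dense (2.15 to 3.14). When peaks with edges within 10 kb were joined into 1 region each, the ratio to the rest of the arm was 1.91 (1.54 to 2.37).

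The 2 flanks of 11q12-q13 differed from each other. On the centromere side, the 5.4 Mb before 60 Mb held 8 peaks, or 1.48 per Mb (0.640 to 2.92), and none of them had another peak centre within 10 kb. On the telomere side, the 57.01 Mb from 78 Mb on held 316 peaks, or 5.54 per Mb (4.95 to 6.19). The telomere side was 1.21 times as dense as the short arm (1.02 to 1.44), a ratio computed at this setting alone. Of whole 1 Mb windows, 14 of 51 on the short arm and 5 of 57 on the telomere side held no peak. For both flanks together the ratio to the short arm was 1.14, with an interval from 0.957 to 1.35 that includes 1. This last ratio depended on the setting, at 0.954 (0.804 to 1.13) without peak-free stretches of over 2 Mb and 1.25 (1.02 to 1.52) after joining peaks within 10 kb. Lengths include unsequenced bases, and no copy-number data were used.

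**Figure D1:**
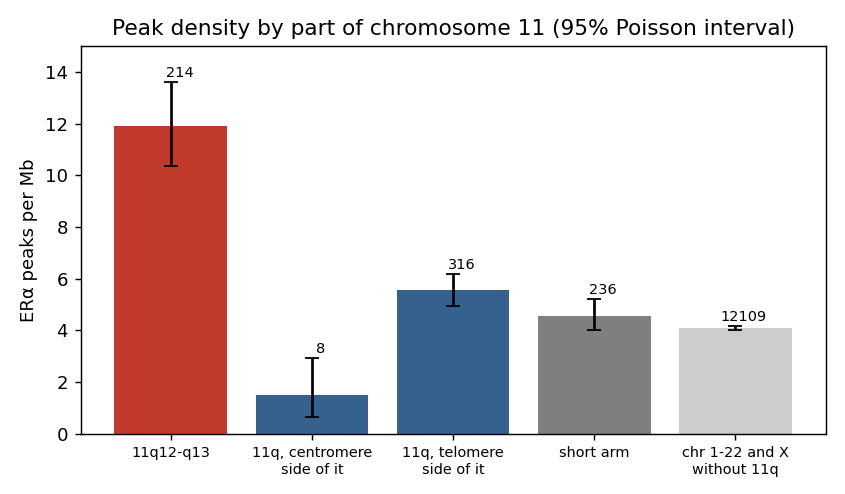
Bars give ERα peaks per Mb in 5 parts of the genome, lines their exact Poisson 95% intervals, and the numbers above them the peaks counted. The bar of 11q12-q13 stands at 11.9 per Mb and its interval lies above those of the other 4 parts.

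The arm as a whole was dense in peaks. It held 6.69 per Mb (6.14 to 7.28), which was 1.63 times (1.495 to 1.78) the density of the other sequence of chromosomes 1 to 22 and X. This ratio depended on the setting, at 1.29 (1.18 to 1.40) without peak-free stretches of over 2 Mb. With all lengths counted, the rest of the arm without 11q12-q13 stood at 1.27 times the density of that other sequence (1.13 to 1.42). The short arm stood at 1.12 times (0.977 to 1.27). Neither of these ratios was computed without the long peak-free stretches, so whether the first stays above 1 at that setting is not known. Over 18 adjacent 1 Mb windows, no other run of the genome reached the 214 peaks of 11q12-q13. There are 2639 such runs on chromosomes 1 to 22 and X, with a median of 66 peaks. Among peaks at or above the median score of the list, 1 run on chromosome 17 also reached the count of 11q12-q13, and after joining peaks within 10 kb 3 runs on chromosomes 17 and 20 did. The bounds of the stretch were set with earlier results of these data known, so its rank is a description.

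Of the 80 whole 1 Mb windows of the arm, 20 held 10 or more peaks and 7 (8.75%) held none. Across chromosomes 1 to 22 and X, 13.2% of whole windows held 10 or more and 24.1% held none, and on the short arm 27.5% held none. The windows of chromosomes 1 to 22 and X include those over centromeres and unsequenced bases. Those of the arms of chromosome 11 leave out the sequence between the arms, so the shares are not fully alike in what they cover. In 11q12-q13, 11 of 18 windows held 10 or more peaks, with a median of 10.5 per window. In the rest of the arm 9 of 62 windows held 10 or more, with a median of 4. The share in the rest of the arm, 14.5%, was thus near the background, as was that of the short arm with 7 of 51 windows (13.7%). The 20 windows became 10 after joining peaks within 10 kb and 6 with peaks at or above the median score alone.

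**Figure D2:**
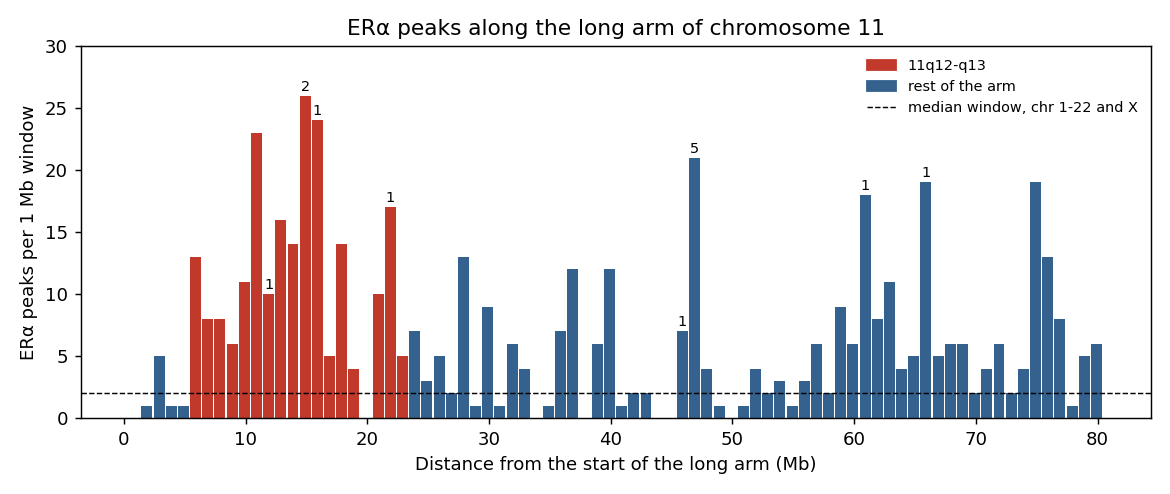
Each bar is the number of ERα peaks in a 1 Mb window, placed by its distance from the start of the long arm, with 11q12-q13 in red. Digits above bars count peaks with a score of 3100 or more. The red bars reach 26 peaks, and the blue bars form separate groups of up to 21.

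Within 11q12-q13 the peaks were densest in the 6 windows from 65 to 71 Mb. These held 113 peaks, or 18.8 per Mb (15.5 to 22.6), and each of the 6 held at least 10. The 5 windows before them had 9.20 per Mb (6.74 to 12.3) and the 7 after them 7.86 per Mb (5.92 to 10.2). The bounds of 65 and 71 Mb were set after the counts were seen, so this contrast is a description. The window from 64000001, outside these bounds, held 11 peaks, more than the 10 of the window from 66000001. The window from 69000001 to 70000000 was the fullest of the arm with 26 peaks, a number exceeded by 10 of 3030 windows of the genome. It was followed by the next window, from 70000001, with 24 peaks and by the one from 65000001 with 23. The window from 76000001 held 17 peaks. In contrast, the window from 74000001 held 0, and the stretch without a peak around it ran from 73849977 to 75043996, or 1.19 Mb.

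Outside 11q12-q13, the full windows were scattered along the arm. The window from 101000001 held 21 peaks, those from 120000001 and 129000001 held 19 each, and the one from 115000001 held 18. Together with the 4 windows named above in 11q12-q13 these are the 8 fullest of the arm, and they hold 167 peaks, or 31.0% of its total. Parts of the other sequence of the arm were sparse. The arm opened with 1.81 Mb before its first peak. Between neighbouring peaks of the arm, the 5 longest peak-free stretches were all outside 11q12-q13, led by 97909076 to 100503590 (2.59 Mb) and 103423774 to 105241997 (1.82 Mb). The others ran from 96234789 to 97871836, from 126257104 to 127891284 and from 87829737 to 89389989. These took up 1.64, 1.63 and 1.56 Mb. Of 14 stretches of over 1 Mb between neighbouring peaks, 1 lay in 11q12-q13.

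The score that the authors' caller gave each peak is used here to rank and divide peaks within the list. The higher density of 11q12-q13 did not come with a detectable shift in score. The median score was 137.35 in 11q12-q13 (order-statistic interval 120.86 to 170.38), 121.41 in the rest of the arm (101.33 to 153.25) and 134.27 on the short arm (112.52 to 167.73). At or above the median score of the whole list were 112 of 214 peaks of 11q12-q13 (52.3%, Wilson interval 45.7 to 58.9%). The rest of the arm had 155 of 324 (47.8%, 42.5 to 53.3%). The difference of 4.50 percentage points had a Newcombe interval from -4.11 to 13.01 points, so a difference of either sign lies within counting error. With the upper quartile of the list as the threshold the difference was -3.02 points (-10.3 to 4.61).

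Peaks with a score of 3100 or more, called strong here, numbered 13 on the arm (2.42%), and 2.12% of the whole list. In 11q12-q13 there were 5 strong peaks, in the rest of the arm 8 and on the short arm 6. The highest listed score of the arm was 3193.49, at 120507436 to 120508376. The other 12 strong peaks share the score 3100, so the list does not rank them, and whether 3193.49 marks stronger enrichment than 3100 is not known from it. By width the first were 101206684 to 101208191 (1508 bp) and 115420545 to 115421675 (1131 bp). The next were 101312188 to 101313292 (1105 bp), 69706076 to 69707163 (1088 bp), 101169771 to 101170800 (1030 bp) and 69952052 to 69953035 (984 bp). The named set of 10 ends with 66795000 to 66795907 (908 bp), 101307036 to 101307831 (796 bp) and 100904668 to 100905435 (768 bp).

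Strong peaks were bunched in the window from 101000001. Of the 13 on the arm, 5 lay there, within 144 kb from 101169771 to 101313292. Of the 220 windows of the genome with a strong peak, 1 other window held as many as 5, and none held more. Of its 16 weaker peaks, 11 were at or above the median score of the list, and their median score was 302.63. Over all 21 peaks of the window the median was 643.86. Between the strong peaks stood peaks of 1611.59 at 101212841 to 101213660, 1020.45 at 101260248 to 101260941 and 1624.96 at 101278002 to 101278605. A further strong peak lay on the centromere side, at 100904668. By comparison, the 26 peaks of the window from 69000001, 2 of them strong, had a median score of 196.60.

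**Figure D3:**
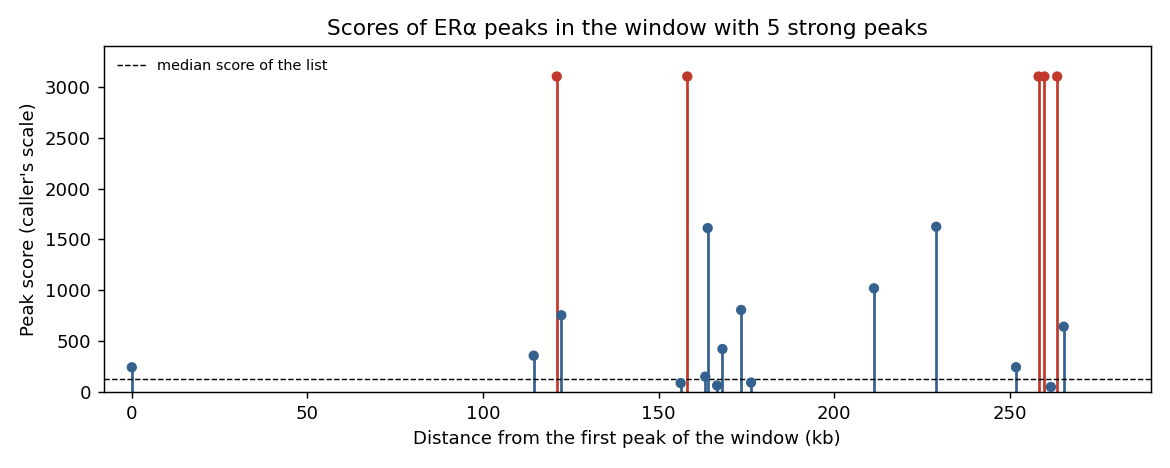
Each stem is an ERα peak of the 1 Mb window with 5 strong peaks, with its score on the vertical axis and its distance from the first peak of that window on the horizontal axis. The 5 red stems at 3100 stand among peaks of 51.50 to 1624.96, most of them above the dashed median of the list. 1 further peak of the window lies beyond the axis.

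Strong peaks of the arm often had a close companion in this list. Another peak centre lay within 2 kb of 10 of the 13 strong peaks of 11q (76.9%, Wilson interval 49.7 to 91.8%), and of 5 of 5 in 11q12-q13. Elsewhere on chromosomes 1 to 22 and X this held for 105 of 256 strong peaks (41.0%, 35.2 to 47.1%). The difference was 35.9 percentage points, with an interval from 8.05 to 51.9. On the short arm 1 of 6 strong peaks had such a companion. The distance of 2 kb was chosen after these values were seen, and values at other distances are not given. Of the 13 strong peaks, 5 lie in the window from 101000001, and those at 101307036 and 101308815 are each other's nearest companion. The 13 are thus not independent, and the difference is a description. Among weaker peaks the share was 20.8% (17.5 to 24.4%) on 11q and 18.2% (17.5 to 18.9%) elsewhere. A list of peaks cannot tell neighbouring sites from a single wide region that was divided by the caller.

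Spacing differed between the parts of the arm along with density. In 11q12-q13, 110 of 214 peaks (51.4%, 44.7 to 58.0%) had another centre within 10 kb, and in the rest of the arm 111 of 324 did (34.3%, 29.3 to 39.6%). The share over chromosomes 1 to 22 and X is 41.4%. The difference of 17.1 percentage points had an interval from 8.61 to 25.4 points. On the short arm the share was 44.9% (38.7 to 51.3%), and 11q12-q13 exceeded it by 6.49 points, with an interval from -2.74 to 15.6 that includes 0. The arm as a whole had a share of 41.1% and did not stand apart. At the other extreme, 5 peaks of 11q12-q13 (2.34%) and 37 of the rest of the arm (11.4%) had no other peak within 200 kb. The share was 11.5% over chromosomes 1 to 22 and X and 9.32% on the short arm, so the rest of the arm was near the background.

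Joining peaks with edges within 10 kb gave 388 regions on the arm, of which 314 held a single peak. Groups of 5 or more peaks numbered 10 and held 60 peaks, 5 groups in 11q12-q13 and 5 outside it. These are 11.2% of the peaks of the arm, against 8.05% in 3 groups on the short arm and 7.20% in 141 groups over chromosomes 1 to 22 and X. The 2 largest held 8 peaks each. The first, at 65145043 to 65165114, included a peak of 2462.51 at 65147184 to 65147874, while its median score was 137.50. The second, at 101205268 to 101225929, contained 1 strong peak and had a median score of 288.91. Next to it, the group of 6 at 101300754 to 101314949 had 3 strong peaks and the highest median score of the 10, 1871.93. The group of 5 at 120492795 to 120508376 held the peak with the highest listed score of the arm and had a median of 603.91.

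Of the other 6 groups, 2 contained a strong peak. The group of 7 at 76480695 to 76510935 and the group of 5 at 69950542 to 69967174 each had 1, with median scores of 115.26 and 81.95. The group of 5 at 72903244 to 72911758 was led by a peak of 3066.64 and had a median of 223.19. Without a score above 800 were the groups at 70912709 to 70919206, 82707959 to 82718493 and 126224959 to 126257103. Their highest scores were 775.22, 742.30 and 637.43.

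Peaks on 11q had a larger median width than the pooled peaks outside it, and this was seen at matched score. Their median width was 579 bp (order-statistic interval 562 to 611 bp), against 502 bp (498 to 505 bp) for the other peaks of chromosomes 1 to 22 and X and 510 bp (486 to 545 bp) on the short arm. This was not particular to 11q, since the medians of whole chromosomes 20 and 17 were 570 and 563 bp, and that of chromosome 11 was 562 bp. The median widths of 11q12-q13, 577.5 bp, and of the rest of the arm, 581.5 bp, were alike within their intervals of 558 to 635 and 549 to 615 bp. The rest of the arm was mixed, with 531.5 bp (503 to 562 bp) from 78 to 120 Mb and 691 bp (635 to 750 bp) from 120 Mb on. Wider peaks score higher in this list, so widths were also compared within 4 score classes, cut so that each holds an equal number of peaks of the whole list. In the lowest class the median was 473.5 bp on 11q (447 to 496 bp) and 397 bp elsewhere (394 to 401 bp). In the highest it was 792.5 bp (724 to 845 bp) against 685 bp (675 to 694 bp). The mean of the 4 differences was 82.0 bp (61.9 to 102.1 bp). Over all scores the difference was 77 bp (52.3 to 101.7 bp), and 57 bp (38.2 to 75.8 bp) without the peaks of 11q from 120 Mb on. From 78 to 120 Mb the medians of the lowest and highest classes were 425 bp (399 to 461 bp) and 715 bp (678 to 796 bp). These lie nearer to the medians outside 11q than those of the whole arm do.

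Median peak width was largest in the last 15 Mb of the arm, although the single widest peak, of 2489 bp, lay in 11q12-q13 at 65185401 to 65187889. From 120 Mb to the end, 106 peaks had a median width of 691 bp (635 to 750 bp), against 559 bp (539 to 576 bp) for the 432 before. Their scores were not higher, with medians of 114.72 and 128.97. At matched score, the mean of the differences from 11q before 120 Mb over the 4 classes was 123.75 bp (54.1 to 193.4 bp). From the lowest to the highest score class, the median width of the last stretch exceeded that of peaks outside 11q by 172, 259, 103.0 and 194.5 bp. Among the 186 blocks of 10 Mb with at least 30 peaks, the block from 120000001 to 130000000 had the second largest median width, 698 bp. The largest was 840 bp, at the end of chromosome 3 from 190000001. By contrast, the block of 11q from 110000001 had 521 bp and was number 73. The position of 120 Mb was chosen after the widths were seen, and the difference of 132 bp was 76 bp with the boundary 5 Mb nearer the centromere and 95 bp with it 5 Mb nearer the end.

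**Figure D4:**
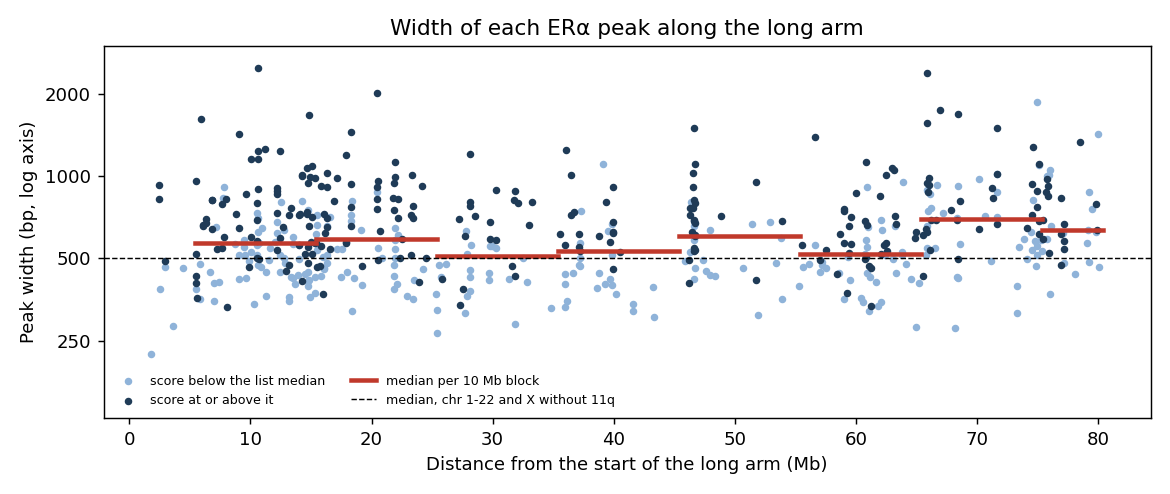
Each point is 1 of the 538 peaks of 11q, with its width on a log axis against its distance from the start of the long arm. Red lines are medians per 10 Mb block (the last block is shorter). They stand highest in the 2 blocks at the far end, at 698 and 637 bp, above the dashed median of 502 bp of peaks outside 11q.

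**Figure D5:**
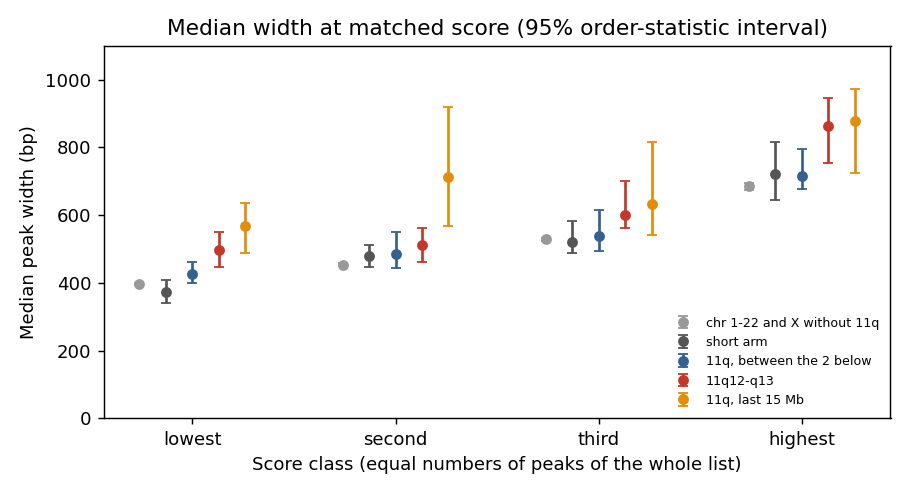
Points are median peak widths within each score class of the list, and lines their order-statistic 95% intervals, for 11q12-q13, the last 15 Mb of the arm, the sequence between them, the short arm and the other peaks of chromosomes 1 to 22 and X. In the lowest class the medians of 11q12-q13 (496 bp) and of the last 15 Mb (569 bp) lie above the other 3.

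No group of peaks joined within 10 kb spanned a bound of the arm or of 11q12-q13. The last peak of the short arm, 50114681 to 50115199, scored 207.22. The first of the long arm, 56411778 to 56412001, scored 73.92. The peaks on either side of 60 Mb scored 66.05 at 59040588 and 257.71 at 60099840. At 78 Mb the last peak inside, 77970711 to 77971721, scored 2691.43, and the first outside, from 78001274, scored 89.39. The last peak of the arm ended at 134672534, 334 kb before the end of the chromosome.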

How the data were processed

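The deposited file is 1 list of peaks, with position, name and a score for each peak from the authors' caller. The peak names carry the prefix of MACS, per the file. The submitters' processing notes name CASAVA 1.8, Bowtie 0.12.9, HOMER and hg19, with no role or order. Neither the sources used here nor the file give the threshold, the scale of the score or the read depth. The deposited start and end positions (other than the score, the only values used) count starts from 0, and 1 was added for printing.

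Peaks were counted by centre per part and per 1 Mb window. Chromosome lengths came from GenomeInfoDb 1.38.1, and 0 chromosomes had a peak past the hg19 end. Intervals are exact Poisson (density), exact conditional binomial (ratio), Wilson (share), Newcombe (difference of shares) and order-statistic (median). Differences of medians carry a normal interval built from the latter. The intervals of ratios, medians and differences of shares were tested on simulated data. The simulated peaks were placed independently of each other, so this test does not cover intervals for grouped peaks. A single library of each kind allows no p-value. Named were the 10 highest-scoring peaks (ties by width), the 8 fullest windows, groups of 5 or more peaks and the 5 longest peak-free stretches, and other peaks and windows after their values were seen. Members and lists were chosen with earlier results of these data known. The planned comparisons with gene starts and the motif were not run without an hg19 annotation and sequence. Intervals were computed with SciPy 1.17.1 in Python 3.11.15, tables with pandas 2.3.3 and NumPy 2.4.6, and plots with matplotlib 3.10.9.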

Additional observations from a re-analysis of the deposited data

How the results depend on the processing

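Of 55 alternative values, 47 stayed within the interval of the reported value, or within 1.5 times a reported count, and 0 reversed a ratio or difference whose interval excluded equality. Leaving out the fullest window could not change the ratio of the rest of the arm to the short arm, since that window lies in 11q12-q13. The density ratio of 11q12-q13 to the rest of the arm ran from 1.91 (peaks joined within 10 kb) to 2.51. Taking long peak-free stretches (over 2 Mb) out of the lengths, which depends on the peaks themselves, gave 2.03 for 11q12-q13 over the short arm, 0.954 for the rest of the arm over the short arm and 1.29 for 11q over the other chromosomes. The windows with 10 or more peaks numbered 10 after joining and 6 for peaks at or above the median score. The runs of 18 windows with at least the count of 11q12-q13, itself included, were 4 and 2. The lower window counts follow from fewer regions being counted, and for the runs the cause was not tested. The width comparisons, the runs and their alternatives were chosen after seeing the data. No paired analysis was possible because the list sets a single ChIP library against a single input. How far read depth limits the weaker peaks is unknown from the file.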
